A study of Mus musculus with 25 samples.

Results

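The regions described here are CTCF positions listed in a mouse fibroblast line with TCF-1 induced, not listed in it untreated, and also listed in a T cell precursor line. They were chosen by presence in peak lists: peaks of 8 CTCF lists were merged into 89730 regions, and a region was kept when both lists of TCF1 induced NIH-3T3 cells, neither list of untreated NIH-3T3 cells and both lists of empty vector Scid.adh cells overlapped it. The fibroblast criteria alone kept 15992 regions, 17.8% of all, and the DN3 criterion left 3703 members, 4.13% of all. Presence or absence in these 6 lists is therefore a given and not a finding. NIH-3T3 is an established embryonic fibroblast line with no labelled genetic change other than the TCF1 induction, and Scid.adh is an immature thymic lymphoma line that the labels call DN3, for double-negative stage 3 of T cell development, and whose empty vector cells they title wild type. The 4 conditions were TCF1 induced NIH-3T3 cells (2 CTCF lists, 1 SMC1 list and 1 TCF-1 list), untreated NIH-3T3 cells (2 CTCF lists and 1 SMC1 list), TCF1 KO Scid.adh cells (2 lists each of CTCF, SMC1, NIPBL and H3K27ac) and empty vector Scid.adh cells (2 lists each of CTCF, SMC1, TCF-1, NIPBL and H3K27ac). How TCF1 was induced, for how long, and whether the knockout was 1 clone were not stated, and nothing says that lists of 1 condition came from separate cultures.

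CTCF is a zinc finger protein that binds a long asymmetric motif and halts the cohesin ring as it extrudes DNA, so that its sites often mark loop anchors and domain borders. SMC1 is a core subunit of cohesin, NIPBL is the protein that loads cohesin and drives extrusion, and H3K27ac is an acetylated histone residue found at active promoters and enhancers. TCF-1, the product of Tcf7, is an HMG-box factor that early T cell progenitors switch on and need to become T cells, and fibroblasts do not normally use it. The lists allow each CTCF site listed in induced and not in untreated fibroblasts, and held by the T cell line, to be set beside TCF-1 and cohesin.

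The sequences of gene promoters lying wholly inside members are shown because they are the stretches of known letters there. All those printed lie in members with fibroblast TCF-1. Whether the printed bases themselves lie under the TCF-1 peak or the CTCF peaks was not checked. The first pair came from the ranking rule for named members, and the other 4 were chosen after their letters and values were seen, for a match to one of the searched motifs. The ranking rule also gave the promoters of Smg5, Cirbp, Polr2e and Ppp1r2, which held neither motif and are not printed. The printed set therefore overstates how often a motif stood in such promoters. Each is 300 bases of RefSeq, build GRCm38.p6, from 250 bases before the gene's start to 50 bases after it, written 5′ to 3′ on the gene's strand. Capitals mark a match to the CTCF core letters AGGGGGC or to the TCF/LEF letters CTTTGAT, on either strand. No printed promoter held both.
Adss: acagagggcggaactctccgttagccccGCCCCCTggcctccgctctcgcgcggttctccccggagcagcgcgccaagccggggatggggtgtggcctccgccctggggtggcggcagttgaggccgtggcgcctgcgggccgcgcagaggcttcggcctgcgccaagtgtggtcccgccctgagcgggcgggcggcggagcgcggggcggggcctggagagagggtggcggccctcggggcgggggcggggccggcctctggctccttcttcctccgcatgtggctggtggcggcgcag
Gtf3c2: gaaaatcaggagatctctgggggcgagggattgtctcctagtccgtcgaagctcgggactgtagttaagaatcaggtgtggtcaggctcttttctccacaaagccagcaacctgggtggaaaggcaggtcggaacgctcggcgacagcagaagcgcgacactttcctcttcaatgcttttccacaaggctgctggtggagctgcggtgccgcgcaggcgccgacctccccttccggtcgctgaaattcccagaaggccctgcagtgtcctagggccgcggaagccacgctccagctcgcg
Tcf12: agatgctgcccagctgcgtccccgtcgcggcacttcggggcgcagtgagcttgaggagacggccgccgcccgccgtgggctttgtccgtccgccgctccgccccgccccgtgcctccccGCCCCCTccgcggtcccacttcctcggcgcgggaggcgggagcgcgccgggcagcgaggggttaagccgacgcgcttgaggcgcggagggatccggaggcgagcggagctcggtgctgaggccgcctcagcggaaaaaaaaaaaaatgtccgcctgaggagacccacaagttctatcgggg
Zfp143: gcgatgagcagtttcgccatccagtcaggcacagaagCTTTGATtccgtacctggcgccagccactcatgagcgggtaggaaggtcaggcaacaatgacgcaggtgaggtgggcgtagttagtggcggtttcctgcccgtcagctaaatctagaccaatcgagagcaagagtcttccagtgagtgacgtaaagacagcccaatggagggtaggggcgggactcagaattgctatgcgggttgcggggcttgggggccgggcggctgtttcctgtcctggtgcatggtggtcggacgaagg
Anapc5: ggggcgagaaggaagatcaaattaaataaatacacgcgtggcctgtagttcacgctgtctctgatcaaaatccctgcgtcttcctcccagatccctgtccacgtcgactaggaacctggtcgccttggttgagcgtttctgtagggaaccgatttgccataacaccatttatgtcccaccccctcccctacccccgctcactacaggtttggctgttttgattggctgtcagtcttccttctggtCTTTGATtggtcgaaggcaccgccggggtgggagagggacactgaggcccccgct
Dcaf1: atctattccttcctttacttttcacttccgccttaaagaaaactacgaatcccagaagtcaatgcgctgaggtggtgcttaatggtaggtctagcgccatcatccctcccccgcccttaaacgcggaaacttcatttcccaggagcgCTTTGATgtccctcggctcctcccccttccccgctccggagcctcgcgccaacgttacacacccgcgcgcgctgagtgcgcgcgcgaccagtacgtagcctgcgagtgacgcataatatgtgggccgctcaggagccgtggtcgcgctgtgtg
The Adss promoter (chr1:177796460-177796759, minus strand) held 1 CTCF core on its other strand, starting at base 29, and the Gtf3c2 promoter (chr5:31180095-31180394, minus strand) held neither motif. The Tcf12 promoter (chr9:72111770-72112069, minus strand) held 1 CTCF core on the other strand from base 120. A TCF/LEF match stood on the given strand at base 38 for Zfp143 (chr7:110061452-110061751, plus strand), at base 246 for Anapc5 (chr5:122821293-122821592, minus strand) and at base 148 for Dcaf1 (chr9:106821674-106821973, plus strand). Zfp143 encodes a zinc finger factor known at promoters that also carry CTCF and cohesin, Anapc5 a subunit of the anaphase-promoting complex, and Dcaf1 a substrate receptor of a ubiquitin ligase. In all, 106 members held at least 1 whole promoter of the table, and 85 of these overlapped fibroblast TCF-1. The like count over all merged CTCF regions was not made, and only a region of at least 300 bases can hold a whole promoter. The CTCF core stood in 24 of 132 promoters inside members (18.2%) and in 3486 of all 32851 promoters (10.6%). The TCF/LEF letters stood in 4 of the 132 (3.03%) and in 3.73% of all promoters. Promoters inside other CTCF regions were not counted apart. A match is a description of letters, and its absence says nothing about binding elsewhere in the member.

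The peaks that made a region a member were narrow in every list. Those of the induced lists were narrower than induced peaks at regions that both untreated and both empty vector lists also held. The median CTCF peak at members was 312 and 302 bp wide in the 2 induced lists, against list medians of 407 and 402 bp. It was 296 and 346 bp in the 2 empty vector lists, where the list medians were 365 and 382 bp. At the 27112 regions found in both lists of induced fibroblasts, of untreated fibroblasts and of empty vector cells, the induced peaks had medians of 610 and 586 bp. The merged members had a median width of 434 bp, with quartiles of 382 and 558 bp and extremes of 255 and 3023 bp. The 9386 induced regions that no empty vector list held had a median of 335 bp and the regions of all 6 lists 776 bp. These CTCF widths belong to the lists that chose the members, so they describe the choice and are not tested. Peaks of the same member mostly lay on the same spot: 3668 members (99.1%) had at least 1 base common to all 4 choosing lists, over a median of 225 bp.

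Just outside the rule lay 3413 regions that met it except for a peak in 1 of the 2 untreated lists. Those untreated peaks were narrow too, with medians of 240 bp in list 1 and 252 bp in list 2, against list medians of 376 and 384 bp. Their induced peaks had medians of 359 and 349 bp, a little above those of the members. The nearest untreated CTCF peak lay a median of 12264 bp from a member, and 4 members lay within 200 bp of one, the closest at 11 bp. Induced lists held 68306 and 64645 peaks, and untreated lists 38369 and 41236. When each of the 8 lists was cut to its 38369 widest peaks, the same rule gave 370 regions, whose overlap with the 3703 was not counted. The count was 5787 without untreated list 2 and 6319 without empty vector list 1. Read totals were not used here, so peak strength is known only through width and list length.

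**Figure D1:**
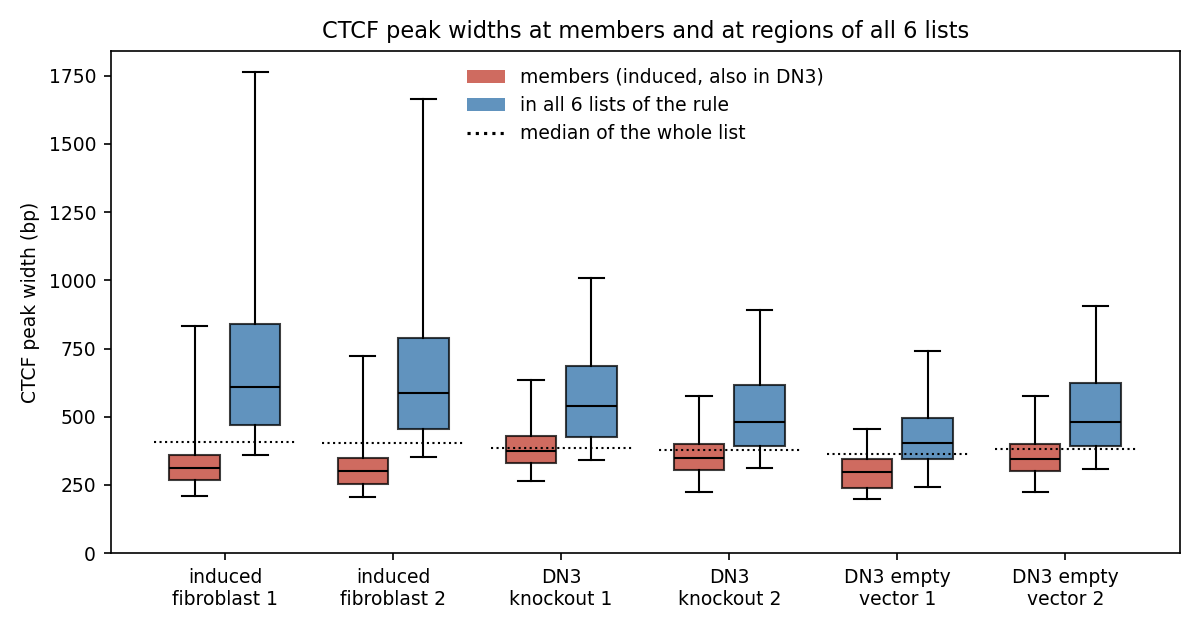
CTCF peak width in bp in 6 lists, for members (red) and for regions held by both induced, both untreated and both empty vector lists (blue). Boxes give the median and quartiles, whiskers the 5th and 95th percentiles, and the dotted line the median of the whole list: the members' median lies under it in every list, at 312 against 407 bp in induced list 1 and at 374 against 387 bp in knockout list 1.

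Few members carried TCF-1. A TCF-1 peak of induced fibroblasts overlapped 210 members, 5.67% (Wilson 95% interval 4.97 to 6.46), against 14.9% of all merged CTCF regions. The share was 12.2% among the 9386 induced regions absent from DN3 cells and 19.9% among the regions of all 6 lists. In empty vector DN3 cells TCF-1 peaks overlapped 110 members in list 1 (2.97%) and 101 in list 2 (2.73%). Both lists held a peak at 77 members, 2.08% (1.67 to 2.59), near the 2.74% of all merged regions and above the 0.298% of induced regions absent from DN3 cells, which lack DN3 CTCF by definition. Without induced list 2 the rule gave 3.26%, above the share of all merged regions. The intervals treat regions as independent and cover counting error only, and no test was made between kinds of region.

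Most members with DN3 TCF-1 had fibroblast TCF-1 as well, and about as many fibroblast TCF-1 members lacked DN3 TCF-1 as had it. Of the 77 members in both DN3 TCF-1 lists, 71 also had the fibroblast peak, and 104 of the 210 fibroblast TCF-1 members had no DN3 TCF-1 peak in either list. Another 35 had the fibroblast peak and a peak in 1 DN3 list, 28 had DN3 peaks in at least 1 list without the fibroblast peak, and 3465 members had no TCF-1 peak of either line. The fibroblast list was 1 list with 39489 peaks and the DN3 lists held 4978 and 5356, so the shares of the lines cannot be compared as amounts of binding.

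TCF-1 overlap went with CTCF peak width. Among members whose mean induced CTCF peak was under 300 bp, 40 of 1671 (2.39%) had a fibroblast TCF-1 peak, and from 300 to under 400 bp 57 of 1486 (3.84%) did. The share was 15.0% of 206 members from 400 to under 500 bp, 26.4% of 144 from 500 to under 700 bp, and 22.4% of 196 at 700 bp or more. Induced regions absent from DN3 cells had 5.47%, 13.1%, 30.6%, 32.1% and 37.9% in the same order of width, so their share was above that of the members in each band. Regions of all 6 lists had 5.63%, 3.38%, 6.58%, 16.3% and 35.3%. Their share was below that of the members in the bands from 300 to under 700 bp, and above it in the narrowest and the widest band. Among the 370 regions that met the rule in lists of equal length, 17% had a fibroblast TCF-1 peak, against 18.8% of all regions under that setting. TCF-1 in both DN3 lists covered 6.76% of the 370, against 3.55% of all regions under that setting. A wider region has more bases to overlap, and the part of width in these shares was not tested.

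**Figure D2:**
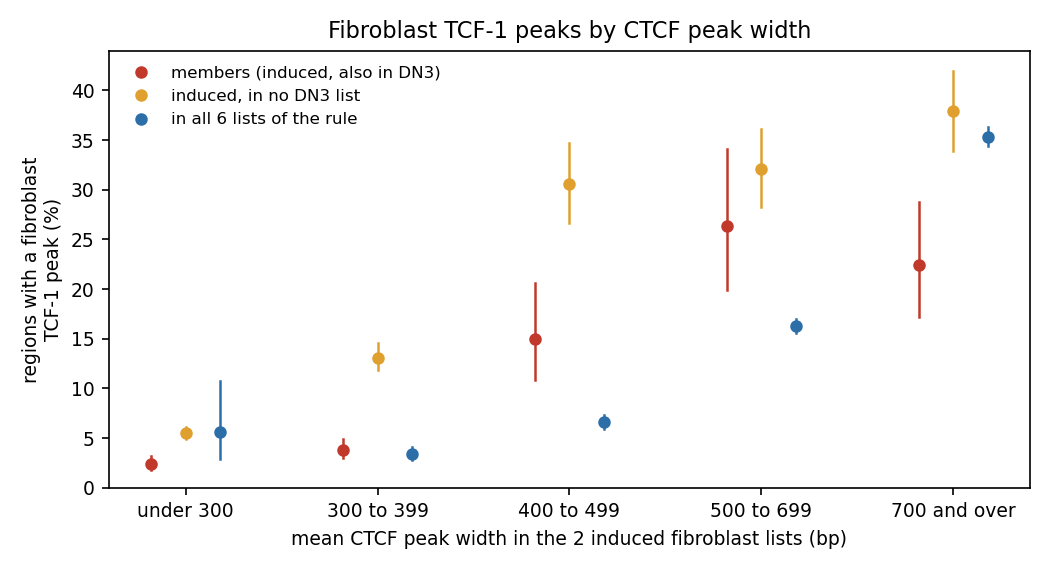
Percent of regions with a TCF-1 peak of induced fibroblasts, by the mean CTCF peak width of the 2 induced lists in bp, for members (red), induced regions in no DN3 empty vector list (yellow) and regions of all 6 lists (blue). Bars are Wilson 95% intervals: members go up to 26.4% in the band from 500 to under 700 bp and stand below the yellow points in each band.

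The TCF-1 members were wider and lay more often at gene ends and acetylated, NIPBL-bound positions, though no test was made. Their median merged width, a measure of the choosing lists, was 728 bp, against 428 bp for the 3493 members without the fibroblast TCF-1 peak. In readouts that the choice did not use, an end of a protein-coding gene lay within 1 kb of 67.1% of them, against 5.55% of the others. H3K27ac in both empty vector DN3 lists covered 91.4% of TCF-1 members and 11.7% of the others, and NIPBL in both empty vector lists covered 63.8% and 1.15%. All 71 members with TCF-1 in both lines had H3K27ac in all 4 DN3 lists, and 87.3% of them lay within 1 kb of a gene end. Where the TCF-1 peak and the common CTCF stretch could be placed, at 198 members, their centres were a median of 150 bp apart, and at 136 (68.7%) the TCF-1 peak covered the CTCF centre. The TCF-1 peaks had a median width of 474 bp there, against 362 bp for the list.

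Seen from the acetylated side, 599 members (16.2%) had H3K27ac in both empty vector lists, close to the 18.8% of all merged regions. These 599 held 192 of the 210 fibroblast TCF-1 members and all 77 members in both DN3 TCF-1 lists. Among the 3104 other members 18 had the fibroblast peak (0.580%) and none was in both DN3 TCF-1 lists. Where neither empty vector list held H3K27ac, fibroblast TCF-1 covered 0.598% of members and 8.01% of all merged regions. NIPBL in both empty vector lists covered 174 members (4.70%, against 6.50% of all regions). A gene end within 1 kb was found for 335 members (9.05%), against 13.1% of all regions, 6.77% of induced regions absent from DN3 cells and 16.4% of regions of all 6 lists. With lists of equal length it was 18.9% of the 370, against 15.7% of all regions.

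**Figure D3:**
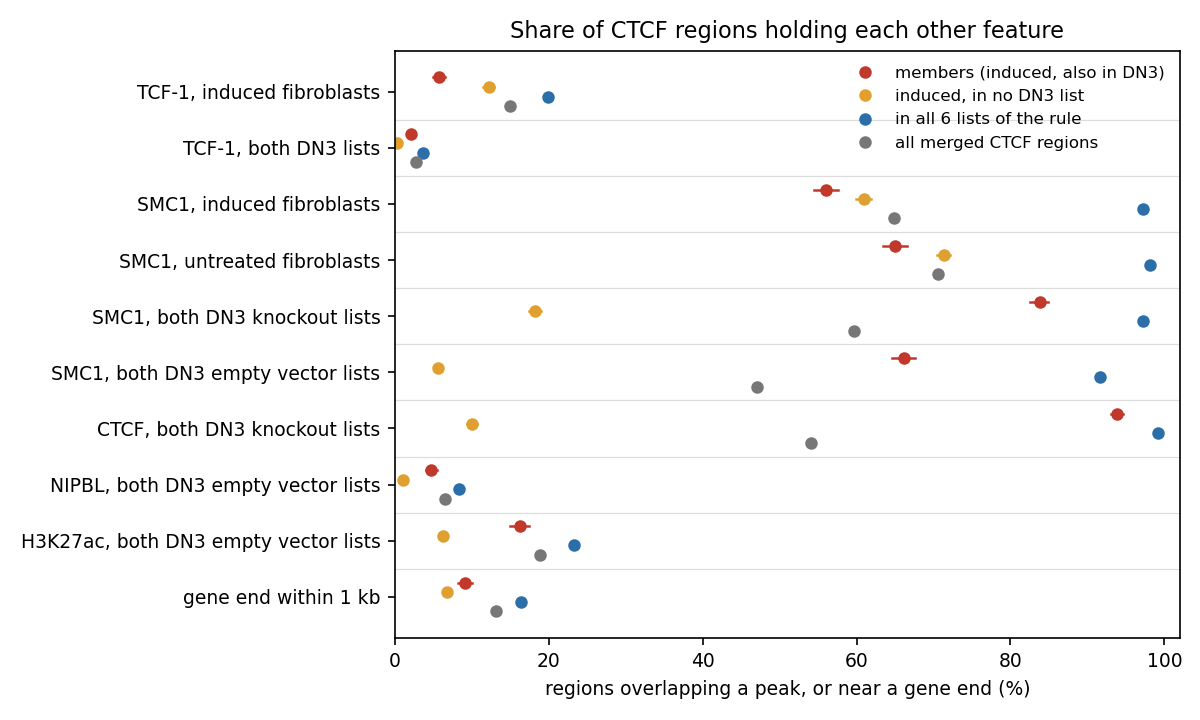
Percent of regions overlapping a peak of each other list, or lying within 1 kb of a gene end, for members (red), induced regions in no DN3 list (yellow), regions of all 6 lists of the rule (blue) and all merged CTCF regions (grey), with Wilson 95% intervals as lines. Members stand low for TCF-1 (5.67%), at 65.0% for SMC1 of untreated fibroblasts and at 93.9% for CTCF in both knockout lists.

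Cohesin was already listed at most of these positions before induction. SMC1 peaks overlapped 2074 members in induced fibroblasts (56.0%) and 2406 in untreated fibroblasts (65.0%, 63.4 to 66.5), where none of the members had a CTCF peak. Over all merged regions the shares were 64.9% in induced and 70.6% in untreated cells. The induced regions absent from DN3 cells had 60.9% and 71.3%, and the regions of all 6 lists 97.2% and 98.1%. Both SMC1 lists held 1872 members (50.6%), induced cells alone 202 (5.46%), untreated cells alone 534 (14.4%) and neither list 1095 (29.6%). Induced regions absent from DN3 cells had 55.2%, 5.66%, 16.1% and 23.0% in the same order. Regions of all 6 lists had 96.6%, 0.513%, 1.51% and 1.34%. At the 1872 shared members the SMC1 peak had a median width of 326 bp in induced and 336 bp in untreated cells, and it was wider in untreated cells at 1107 of them (59.1%). The order of the conditions turned under a cut of the longer list. The induced list held 95293 SMC1 peaks and the untreated list 105033. Cut to its 95293 widest peaks, the untreated list overlapped 55.2% of the members, just under the induced share. It then overlapped 66.1% of all merged regions, above their induced share of 64.9%. That cut drops the narrowest untreated peaks, and SMC1 peaks at members were narrow against the list medians of 616 bp in induced and 547 bp in untreated cells. Each condition had 1 SMC1 list, so no test was possible.

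The TCF-1 members had SMC1 more often in both conditions. It covered 98.6% of them in induced cells, against 53.4% of the members without TCF-1, and 96.2% against 63.1% in untreated cells. Members with narrow induced CTCF peaks, under 300 bp, had SMC1 at 43.7% in induced and 52.9% in untreated cells, and those of 700 bp or more at 79.1% and 85.2%. Across the 2 fibroblast and 4 DN3 lists, 1500 members (40.5%) had SMC1 in all 6 lists, near the 38.3% of all merged regions, and 150 (4.05%) in none, against 12.7% of all regions.

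In the T cell line the CTCF peaks at members were also present without TCF-1. Of the 3703 members, 98.3% had a CTCF peak in list 1 and 94.7% in list 2 of TCF1 KO cells, and 3476 (93.9%, 93.1 to 94.6) were in both. All merged regions had 54.1%, a lower share that includes fibroblast-only regions, and the regions of all 6 lists had 99.2%. Another 194 members were in 1 knockout list and 33 in none. Of these 33, 2 had a fibroblast TCF-1 peak. The TCF-1 members were in both knockout lists at 86.2%, against 94.3% of the members without TCF-1. Peaks at members had medians of 374 and 350 bp in the knockout lists, against 296 and 346 bp in the empty vector lists that chose them. The knockout lists were longer, with 62353 and 55149 CTCF peaks against 42214 and 53729, and without empty vector list 1, which is the shortest, the share in both knockout lists was 81.3%.

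SMC1 at members was listed more often in knockout cells, without reaching significance. Knockout lists held 85.4% and 91.4% of members and empty vector lists 68.9% and 81.3%, with no overlap between the conditions. The means were 88.4% ± 4.26 in knockout and 75.1% ± 8.80 in empty vector cells (SD, n = 2 lists each), a difference of 13.3 percentage points (exact two-sided permutation test over lists, p = 0.333, which is the smallest the design allows, and 0.667 after Benjamini-Hochberg adjustment over 3 tests). Over all merged regions the means were 63.9% and 52.4%, a difference of 11.5 points. With all 4 SMC1 lists cut to equal length the members' difference was 1.88 points. That cut kept the widest peaks of each list, and the difference over all merged regions under it was not computed. Both knockout lists held SMC1 at 83.8% of members, against 59.6% of all regions, and both empty vector lists at 66.1%, against 47.0%. There were 202 members (5.46%) with SMC1 in both knockout lists and no empty vector list, against 5.81% of all regions, and 13 (0.351%) with the reverse, against 0.211%. Of the 202, 1 had a fibroblast TCF-1 peak. Few TCF-1 members could enter this count, since 199 of the 210 had SMC1 in both empty vector lists.

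NIPBL and H3K27ac did not separate the conditions at members. NIPBL overlapped 12.6% and 7.05% in knockout lists and 4.97% and 7.24% in empty vector lists, a difference in means of 3.74 points (exact permutation p = 0.667, adjusted 0.667). Over all merged regions the means were 12.7% and 8.64%, a larger difference of 4.03 points, and with NIPBL lists of equal length the members' difference was 0.581 points. H3K27ac overlapped 17.8% and 17.6% in knockout lists and 17.3% and 17.6% in empty vector lists, a difference of 0.216 points (exact permutation p = 0.667, adjusted 0.667), and 0.513 points with lists of equal length. Over all merged regions both H3K27ac means were 20.1%. Both knockout NIPBL lists and no empty vector list held 30 members (0.810%, against 0.797% of all regions), and none showed the reverse, which 0.0312% of all regions did. For H3K27ac 30 members were in both knockout lists alone (0.810%, against 0.860%) and 38 in both empty vector lists alone (1.03%, against 0.919%). With 2 lists a condition these values cannot show that acetylation was alike, only that the lists overlapped or, for H3K27ac, met at 17.6%. P-values over lists measure the spread between these lists alone, which may be technical.

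**Figure D4:**
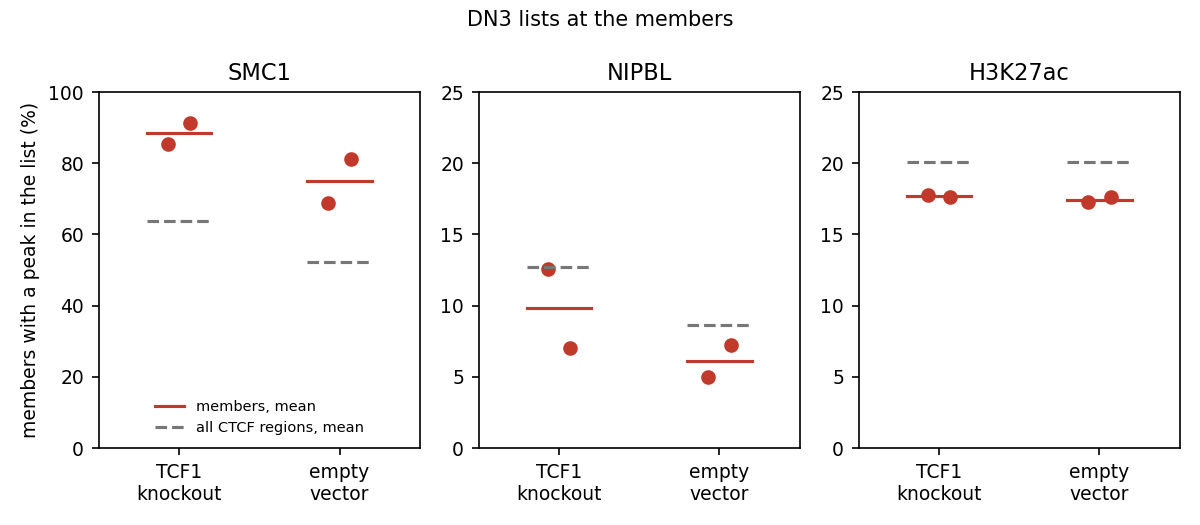
Percent of members with an SMC1, NIPBL or H3K27ac peak in each DN3 list (points) and the mean (red line), in TCF1 knockout and empty vector cells, with the mean over all merged CTCF regions dashed in grey. The y axis of SMC1 ends at 100% and the others at 25%: the SMC1 points lie at 85.4% and 91.4% in knockout and at 68.9% and 81.3% in empty vector cells, and the points of the other antibodies overlap or meet.

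The widest members with TCF-1 in both lines lay mostly at gene ends. Members were ranked by the lowest of their width percentiles in the 4 choosing lists, which had a median of 14.2 and reached 50 or more at 67 members (1.81%). The first of the TCF-1 members, at Adss (chr1:177795642-177797778), an enzyme of purine nucleotide synthesis, ranked at 79.8. Its CTCF peaks were 1440 and 2026 bp wide in induced fibroblasts, 573 and 472 bp in knockout cells and 554 and 559 bp in empty vector cells, and untreated fibroblasts had none. TCF-1 peaks there were 868 bp wide in fibroblasts and 681 and 939 bp in DN3 cells, and SMC1 peaks 3379 bp in induced and 3238 bp in untreated fibroblasts. Fibroblasts thus had a broad cohesin peak at the Adss promoter with and without the listed CTCF peak. The authors' fold enrichment of H3K27ac at Adss was 7.79 and 7.40 in knockout and 8.0 and 8.30 in empty vector cells.

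Others of the same class were Gtf3c2, a subunit of the RNA polymerase III factor TFIIIC (chr5:31179295-31180396), Polr2e, a subunit shared by the nuclear RNA polymerases (chr10:80039465-80040838), and Cirbp, the cold-inducible RNA-binding protein (chr10:80167222-80168166). At Gtf3c2 the CTCF peaks were 1022 and 943 bp in induced fibroblasts, 485 and 444 bp in knockout cells and 417 and 597 bp in empty vector cells. At Polr2e they were 850 and 945 bp in induced, 606 and 666 bp in knockout and 579 and 413 bp in empty vector cells. Gtf3c2 and Polr2e resembled Adss in having SMC1 in both fibroblast lists. Cirbp was unlike them, with no SMC1 peak in either fibroblast list, a fibroblast TCF-1 peak of 1416 bp, and SMC1 peaks of 1970 and 1848 bp in knockout and 1523 and 1633 bp in empty vector DN3 cells.

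Smg5, a factor of nonsense-mediated decay (chr3:88335009-88336502), was 1 of 5 members of this class in 1 knockout list only, and the one among the 12 named here. Its CTCF peak was 555 bp wide in knockout list 1 and was not called in list 2, against 413 and 696 bp in empty vector cells, while its H3K27ac fold was 10.9 and 10.2 in knockout and 10.4 and 10.8 in empty vector cells. The class also held members at Sap130, a subunit of a histone deacetylase complex, Mgat5, an enzyme that branches N-glycans, Ppp1r2, an inhibitor of protein phosphatase 1, Slc5a3, a myo-inositol transporter, Dctn2, a dynactin subunit, Wnt5b, a Wnt ligand, and Tm7sf3. Their ranks ran from 46.6 at Wnt5b to 69.3 at Sap130. By the gene table all of these except Cirbp lay within 1 kb of a gene end, and the Cirbp member held a whole Cirbp promoter of the promoter table, so a gene start lay in it too.

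Among members with TCF-1 in fibroblasts and in neither DN3 list, the first by rank lay in Itgav, the integrin alpha V gene (chr2:83723880-83724546, rank 68.2), where CTCF peaks were 578 and 547 bp in induced fibroblasts, 667 and 367 bp in knockout and 547 and 521 bp in empty vector cells. SMC1 at Itgav was 2742 bp wide in induced and 6854 bp in untreated fibroblasts. Sntb2, a syntrophin of the dystrophin complex, Pnpla8, a phospholipase, Capn2, a calpain protease, Morc2a, an ATPase of chromatin silencing, and Ccl9, a chemokine, followed, together with members at Gm52009 and 4970 bp from Ggnbp1. The Capn2 member (chr1:182506239-182506813) stood apart in having no H3K27ac or NIPBL peak in any DN3 list. At Ccl9 (chr11:83577202-83579440) H3K27ac was called in both empty vector lists, at folds of 3.40 and 2.96, and in neither knockout list.

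Most of the 10 highest-ranked members of all had no TCF-1 peak, which also held for 3465 of all 3703 members. Those of the 10 with one were Adss, Itgb3 and a member near Gga1. The top rank, 90.7, belonged to a member far from genes (chr2:169107855-169109580), 152267 bp from Zfp64, with CTCF peaks of 1172 and 1235 bp in induced fibroblasts, 457 and 525 bp in knockout and 696 and 688 bp in empty vector cells. It had no SMC1 peak in either fibroblast list, while SMC1 was called in all 4 DN3 lists and H3K27ac folds were 2.97 and 2.96 in knockout and 3.37 and 3.12 in empty vector cells. Larp1, a regulator of ribosomal protein messages (chr11:58018302-58019057), had almost equal CTCF peaks throughout, of 744 and 705 bp in induced fibroblasts, 734 and 708 bp in knockout and 691 and 736 bp in empty vector cells. Its SMC1 peaks were 681 bp in induced and 692 bp in untreated fibroblasts. Larp1 is thus a case in which a broad CTCF peak was called in 6 lists and in neither untreated list, beside SMC1 of the same width.

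Itgb3, an integrin beta subunit (chr11:104660510-104662106), had DN3 TCF-1 in list 1 and no fibroblast TCF-1. Its H3K27ac peak was 1962 and 1763 bp wide in knockout and 6157 and 4765 bp in empty vector cells, with folds of 4.15 and 4.51 against 5.74 and 6.30. The lists did not overlap at Itgb3, and 1 region chosen by CTCF width gives no test. A member 4419 bp from Gga1, an adaptor of protein sorting, was the only other one of the 10 besides Adss with a fibroblast TCF-1 peak. The remaining members of the 10 lay in Sbk2, in Itgb4, in Arhgap25, in Rora and 14109 bp from Neurog1.

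Rora held the most members of any gene, 13 in its body extended by 10 kb. Rora (chr9:68653404-69388246, 735 kb) encodes the nuclear receptor ROR alpha, which in the immune system is used by type 2 innate lymphoid cells and T helper 17 cells. Of 46 merged CTCF regions there, 13 were members, 4 were induced and in no DN3 list, and 5 were in all 6 lists. The CTCF lists held 34 and 30 peaks there in induced fibroblasts, 7 and 8 in untreated fibroblasts, 40 and 34 in knockout cells and 25 and 32 in empty vector cells. No Rora member had a TCF-1 peak of either line, although the fibroblast TCF-1 list held 14 peaks elsewhere in the gene extended by 10 kb. All 13 were in both knockout CTCF lists and both knockout SMC1 lists, and 11 were in both empty vector SMC1 lists. In fibroblasts 10 had SMC1 in induced and 6 in untreated cells. Their widths ran between 354 and 1362 bp, with a median of 442 bp, and the highest-ranked (chr9:68759045-68759946) had CTCF peaks of 672 and 646 bp in induced, 731 and 712 bp in knockout and 575 and 863 bp in empty vector cells, with no fibroblast SMC1.

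**Figure D5:**
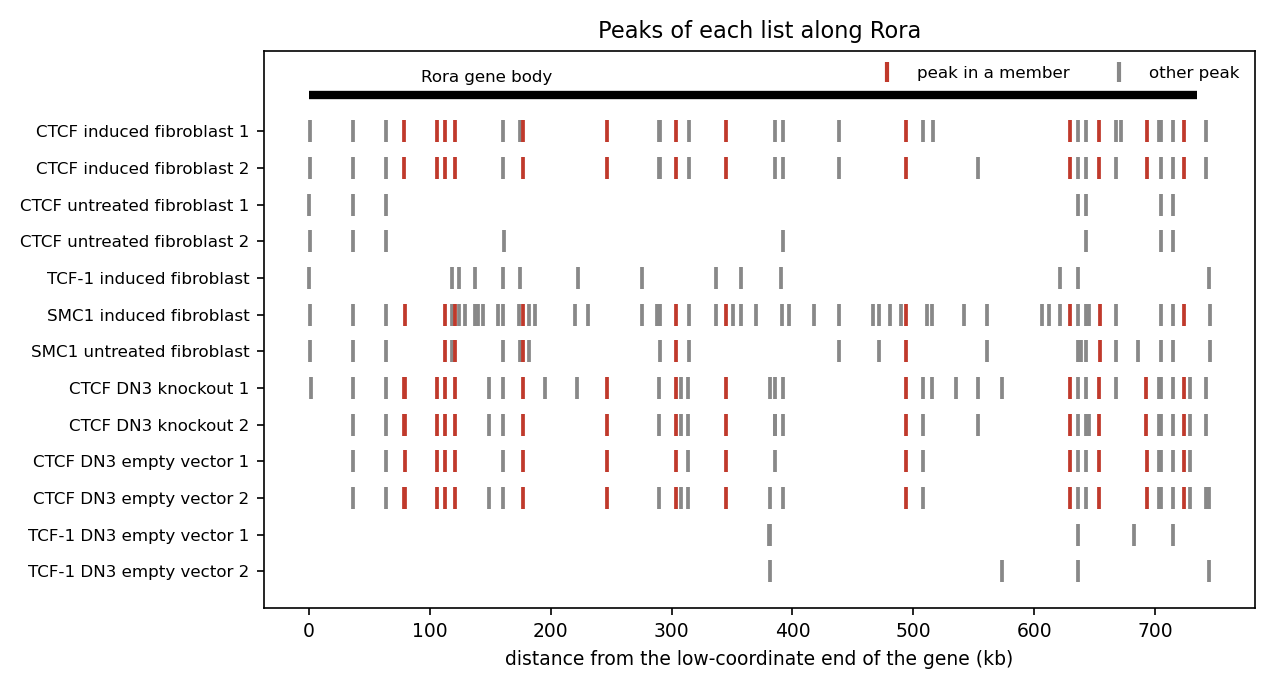
Peak centres along Rora in kb from the low-coordinate end of the gene, 1 row per list, with peaks in members in red and other peaks in grey. The induced and DN3 CTCF rows share the 13 red positions, the untreated CTCF rows have none of them, and the TCF-1 rows have no red mark.

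Fry (chr5:150118618-150497753) held 8 members of 47 regions. All 8 were in both knockout and both empty vector SMC1 lists, 7 were in both knockout CTCF lists, and 0 had SMC1 in induced and 1 in untreated fibroblasts. Fry and Rora thus differed in fibroblast cohesin, and neither had TCF-1 at a member. Wwox, an oxidoreductase gene at a fragile site (chr8:114439635-115352712), held 5 members, of which 2 had SMC1 in induced and 2 in untreated fibroblasts. Mtus2 also held 5. The gene models Gm37013, Gm38666 and Gm38667, which span the clustered protocadherins, held 9 members each and several Pcdhga and Pcdhgb genes 5 each, but these models overlap, so they count the same regions. In all, 2778 of 21887 protein-coding genes (12.7%) had a member in the extended body, 2366 of them exactly 1. Gene bodies held 2042 members (55.1%), against 56.0% of the induced regions absent from DN3 cells. The share over all merged regions was not counted.

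In the list of T lineage regulators 7 of 20 genes (35.0%) had a member (Lef1, Bcl11b, Runx1, Ikzf3, Tcf12, Myb and Ets1), against 12.7% of all genes, but the median gene of this list spans 69.4 kb and that of all genes 17.2 kb. Tcf7 itself (chr11:52246527-52283383) had 0. At 2 of the 7, Tcf12 and Ets1, a member overlapped fibroblast TCF-1. No list was tested, since the lists and the members were chosen with earlier results known.

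Bcl11b is the factor that commits progenitors to the T lineage, and its member lay at a gene end (chr12:108003815-108004608). CTCF peaks at Bcl11b were 246 and 200 bp in induced fibroblasts, 528 and 533 bp in knockout and 794 and 447 bp in empty vector cells. The fibroblast peaks were thus at the narrow end of their lists. No fibroblast SMC1 peak was called there in either condition, and TCF-1 was called in DN3 list 2 alone, at 234 bp. Lef1, the HMG-box relative of TCF-1, had a member at a gene end (chr3:131110131-131110521) with CTCF peaks of 214 and 337 bp in induced, 391 and 353 bp in knockout and 298 and 258 bp in empty vector cells. The H3K27ac peak over the Lef1 member was 9317 and 9909 bp wide in knockout and 5302 and 5253 bp in empty vector cells, with folds of 7.38 and 7.56 against 8.71 and 8.81.

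Myb, a factor of progenitor growth (chr10:21157669-21158696), resembled Bcl11b, with TCF-1 in DN3 list 1 alone. Its CTCF peaks were 284 and 529 bp in induced fibroblasts, 643 and 828 bp in knockout and 607 and 904 bp in empty vector cells, with no fibroblast SMC1 peak and SMC1 of 5230 and 4805 bp in knockout and 1642 and 3961 bp in empty vector cells. Tcf12, which encodes the E protein HEB, held a promoter member with TCF-1 in all 3 lists (chr9:72110399-72112228) and another without TCF-1. The promoter member had CTCF peaks of 735 and 1757 bp in induced, 540 and 339 bp in knockout and 200 and 336 bp in empty vector cells. Ets1 (chr9:32671996-32672482) had fibroblast TCF-1 alone, and SMC1 of 7370 bp in induced and 1240 bp in untreated fibroblasts. The order of the conditions in fibroblast SMC1 width was thus opposite at Ets1 and Itgav. Runx1, a partner factor of T cell genes, held 3 members, all without TCF-1 and all with SMC1 in both fibroblast conditions, and Ikzf3 had 2 members, 7963 and 9100 bp away from it.

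Receptor and recombination genes had a member at 2 of 22 genes, Lcp2 and Cd2, a share of 9.09% that is near the 12.7% of all genes, with a median gene length of 21 kb. Lcp2, the adaptor SLP-76 (chr11:34073649-34074273), had no fibroblast SMC1 and SMC1 in all 4 DN3 lists, while Cd2, an adhesion molecule, had SMC1 in both fibroblast lists. Genes of the Wnt pathway had 4 of 15 (26.7%), against 12.7% of all genes, with a median gene length of 72.5 kb against 17.2 kb. Axin2, a feedback inhibitor and classical target (chr11:108919949-108920883), was the member among them with TCF-1 in both lines. Its CTCF peaks were 808 and 200 bp in induced fibroblasts, 920 and 915 bp in knockout and 818 and 835 bp in empty vector cells, and its TCF-1 peaks were 598 bp in fibroblasts and 1339 and 1387 bp in DN3 cells. The H3K27ac fold at Axin2 was 6.57 and 6.54 in knockout and 8.08 and 8.53 in empty vector cells, with no overlap between the lists. Most named members with H3K27ac in every DN3 list shared this. Knockout folds also lay wholly below those of empty vector cells at Adss, Sap130, Gtf3c2, Tm7sf3, Mgat5, Cirbp, Slc5a3, Dctn2 and Wnt5b. The same held at Lef1, Bcl11b, Myb, Ets1, Itgb3, Gm52009 and a Rora member, and near Ggnbp1, Gga1 and Zfp64. Knockout folds lay wholly above at Polr2e, with 4.77 and 4.92 against 4.50 and 4.47, and at Sntb2, in Pdgfrb and near Neurog1. The conditions overlapped or met at Smg5, Ppp1r2, Itgav, Pnpla8, Morc2a, Thy1, the Tcf12 promoter, a Runx1 member and another Rora member. The like count over all merged regions was not made, and no fold was tested. Nkd1 and Tcf7l1 held 1 member each without TCF-1, and the Myc member lay 9891 bp from the gene.

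The shares of the other lists lay on both sides of the 12.7% of all genes. Genes of CTCF, cohesin and its loader had 3 of 15 (Nipbl, Pds5a and Ctcfl), with a median length of 46.4 kb. Fibroblast genes had 2 of 24 (8.33%; median 21.6 kb), Thy1 and Pdgfrb. Thy1, a surface protein of both fibroblasts and T cells (chr9:44042956-44044774), had fibroblast TCF-1, DN3 TCF-1 in list 1, and CTCF peaks of 1819 and 271 bp in induced, 321 and 287 bp in knockout and 203 and 292 bp in empty vector cells. The H3K27ac peak over Thy1 was 12484 and 13542 bp wide in knockout and 33063 and 33460 bp in empty vector cells, at folds of 7.35 and 6.99 against 7.22 and 7.46. B, myeloid and natural killer genes had 2 of 17 (11.8%; Pax5 and Tbx21), and housekeeping genes 0 of 14, with a median length of 5.64 kb. A wider H3K27ac peak in empty vector cells, as at Thy1, also lay over the member 1214 bp from Tbx21, the factor T-bet, with 3771 bp in knockout list 1, none in knockout list 2, and 24338 and 24656 bp in empty vector cells. The member inside Pdgfrb, a growth factor receptor of mesenchymal cells, went the other way, with H3K27ac peaks of 23069 and 19683 bp in knockout and 5965 and 7212 bp in empty vector cells. Such widths also differed between lists of 1 condition. At the member near Gga1 they were 7199 and 1544 bp in knockout cells. At Cd2 empty vector list 2 held a peak of 16791 bp and list 1 none. No difference in H3K27ac width, here or at Lef1 and Itgb3, was tested.

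Members were spread over chromosomes 1 to 19 and X, unevenly against the regions of all 6 lists. There were 6.29 members per 100 such regions on chromosome 19, 8.11 on chromosome 17 and 9.56 on chromosome 8. At the other end were chromosome 14 with 22.5, chromosome 9 with 22.0 and chromosome 13 with 20.9. Induced regions absent from DN3 cells had another order, with 25.8 per 100 on chromosome 2, 27.9 on chromosome 14 and 43.4 on chromosome 18. These ratios were not tested.

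The DN3 label was checked against the acetylation lists. In both empty vector lists H3K27ac stood at 7 of 8 markers of DN3 cells (Ptcra, Rag1, Cd3e, Il2ra, Bcl11b, Dntt and Notch1, but not Rag2) and at 1 of 6 fibroblast markers, Pdgfrb. NIH-3T3 cells had no list that could serve as such a check. Replicate lists shared at most 10 identical peaks, so none was a copy of another.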

How the data were processed

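Chromatin immunoprecipitation with sequencing was read from 25 peak lists, 1 per sample, grouped by line, treatment and antibody as labelled. Bowtie2, MACS2, bedtools and the mm10 build were named per the submitters' processing notes, with settings, versions and control libraries not given in the sources used here. CTCF, SMC1 and TCF-1 lists give positions only. In the NIPBL and H3K27ac lists peaks carry the authors' score, fold enrichment ratio, and −log10 p and q-values. For equal list length the deposited −log10 q-value ranked NIPBL and H3K27ac peaks, and width ranked CTCF and SMC1 peaks. The authors' fold describes named peaks, and the deposited score was not used. Depth is unknown, and a longer list can come from deeper sequencing.

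Peaks were merged with a gap of 0 bp, giving the same 89730 regions in the code used here and in bedtools 2.31.1, and an overlap of at least 1 bp counted. Gene positions were from RefSeq (GRCm38.p6), which has the coordinates of mm10. That table gives no strand, so distance to either gene end was used. Of 21887 protein-coding symbols, 17492 matched the promoter table. Lists were compared between knockout and empty vector by exact two-sided permutation of the lists, at a threshold of 0.05, and replicate numbers were not stated to pair cultures. Computation used python 3.11.15, numpy 2.4.6, pandas 2.3.3, scipy 1.17.1 and matplotlib 3.10.9, and the code was tested on simulated lists.

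The members, the 7 gene lists and the rule for named regions were chosen with earlier results of these data known. Named regions were up to 12 members with TCF-1 in both lines and up to 8 with it in fibroblasts only, by the lowest width percentile over the 4 choosing lists, the 10 highest such ranks of all, the 5 genes with most members, every listed gene with a member in its body extended by 10 kb, and Tcf7. Alternatives were other merging, overlap and list length settings, leaving out lists, splits by width, and chromosomes 1 to 19 and X.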

Additional observations from a re-analysis of the deposited data

How the results depend on the processing

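The values for members were stable to merging across 500 bp and to an overlap of 50%, and depended on list length and width. With CTCF lists of equal length 370 regions met the rule, and shares of all regions under that setting follow in brackets. Fibroblast TCF-1 covered 17% (18.8%), TCF-1 in both DN3 lists 6.76% (3.55%) and SMC1 in untreated fibroblasts 84.1% (83.0%). CTCF in both knockout lists covered 74.9% (53.0%), and 18.9% (15.7%) had a gene end within 1 kb. Among the 1842 wider members the same shares were 10.3%, 3.91%, 68.7%, 96.0% and 13.5%, and among the 1861 narrower ones they were 1.13%, 0.269%, 61.3%, 91.8% and 4.67%. Leaving out each of the 6 choosing lists gave between 3990 and 6319 members (5787 without untreated list 2, 6319 without empty vector list 1), with fibroblast TCF-1 at 5.64% to 7.49%, DN3 TCF-1 at 1.77% to 3.26% (the last without induced list 2), untreated SMC1 at 62.0% to 70.9%, knockout CTCF at 81.3% to 94.6% and gene ends at 8.85% to 11%. With CTCF in either empty vector list 80.2% were in both knockout lists, and TCF-1 in either DN3 list covered 3.62%. Chosen after seeing the data was a gene start in place of a gene end (7.67%, against 10.9% of all regions). So were members without H3K27ac in either empty vector list (0.598% with fibroblast TCF-1, against 8.01% of all such regions). Members with a base common to the 4 choosing lists (5.40% with fibroblast TCF-1) were a later choice as well. The same holds for untreated SMC1 cut to the length of the induced list (55.2%, against 66.1% of all regions). The causes were not tested.

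With the replicate block, pairing lists of the same number, the differences of SMC1, NIPBL and H3K27ac stayed 13.3, 3.74 and 0.216 points, with exact sign-flip p of 0.5, 1.00 and 1.00 where 0.5 is the smallest possible. Leaving out each DN3 list moved them between 7.09 and 19.5, between 0.945 and 6.54, and between 0.0945 and 0.338 points. Equal list length gave 1.88, 0.581 and 0.513 points. No difference passed the threshold under any of these settings, and this design could not have let one pass.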
